A study of Mus musculus with 27 samples.

Results

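The 7 MHC class II presentation genes described here are Cd74, H2-Aa, H2-Ab1, H2-Eb1, H2-DMa, Ciita and Ctss, chosen by name as the chains, loading factors and master regulator of class II antigen presentation, out of 18820 genes that the liver arrays measured with a probe set of their own. Each of the 7 was represented by 1 probe set, and all 7 were among the 10810 genes that passed the intensity and variation filters. Liver RNA came from C57BL/6J pups of 2 weeks of age, each pup on 1 array (Affymetrix Mouse Gene 1.1 ST). The groups were 6 male pups of dams on a Western-style diet (WSD; group m-WS), 6 male pups of dams on a low fat diet (LFD; m-LF), 6 female pups of WSD dams (f-WS) and 9 female pups of LFD dams (f-LF). The WSD supplied 45% of its energy as fat and 196.5 mg cholesterol per kg and the LFD 10% and 18.0 mg per kg, both as purified diets in which the cholesterol came from lard. Dams ate their diet for 6 weeks before mating with males kept on the control diet and went on with it until the pups were killed, so the pups met the diet only through the mother. Litters were evened out in size after birth, and the labels do not say which pups were littermates.

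MHC class II molecules are pairs of an alpha and a beta chain that carry peptides from engulfed material to the cell surface, where CD4 T cells read them. The chains are assembled on the invariant chain, encoded by Cd74, which blocks the peptide groove until cathepsin S (Ctss) cuts it in the endosome and the H2-DM heterodimer, of which H2-DMa is the alpha chain, exchanges the remaining fragment for a peptide. Ciita is the transactivator that switches on the class II promoters. In liver these genes are known mainly from dendritic cells, B cells, Kupffer cells and, more weakly, sinusoidal endothelium, whereas hepatocytes express little of them at rest, so a whole-liver value mixes the number of such cells with the RNA in each of them. In bulk tissue, fewer cells of a type and less RNA per cell cannot be told apart.

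H2-Aa and H2-Ab1 encode the alpha and beta chain of the I-A molecule and H2-Eb1 the beta chain of I-E. In the RefSeq annotation of GRCm38.p6 all 3 lie side by side on chromosome 17, with 0 other genes between H2-Ab1 and H2-Aa and 0 between H2-Aa and H2-Eb1, and H2-DMa is separated from H2-Ab1 by 8 genes, among them those of the immunoproteasome and the peptide transporter of class I. Ciita lies on chromosome 16 and Ctss on chromosome 3. C57BL/6 mice are known to carry a defective H2-Ea gene, the alpha chain partner of H2-Eb1, and the H2-Ea probe set read between 2.54 and 3.16 on the log2 scale in all 27 pups, under the intensity filter.

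Class II promoters are known for a shared block of elements, the X, X2 and Y boxes, on which the RFX, CREB and NF-Y factors assemble before Ciita joins them. The 250 bases before the annotated start are shown for H2-Aa and H2-Eb1, the neighbouring pair whose levels moved together most closely across the pups, with the elements searched for in capitals. The RefSeq sequences of build GRCm38.p6 are written 5′ to 3′ on the strand of the gene, at chr17:34287824-34288073 on the minus strand for H2-Aa and chr17:34305617-34305866 on the plus strand for H2-Eb1.
H2-Aa: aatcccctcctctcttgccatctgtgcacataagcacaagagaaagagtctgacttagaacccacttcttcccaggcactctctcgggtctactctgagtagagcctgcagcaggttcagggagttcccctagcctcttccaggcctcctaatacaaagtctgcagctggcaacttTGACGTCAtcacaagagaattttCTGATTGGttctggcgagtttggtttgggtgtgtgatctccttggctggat
H2-Eb1: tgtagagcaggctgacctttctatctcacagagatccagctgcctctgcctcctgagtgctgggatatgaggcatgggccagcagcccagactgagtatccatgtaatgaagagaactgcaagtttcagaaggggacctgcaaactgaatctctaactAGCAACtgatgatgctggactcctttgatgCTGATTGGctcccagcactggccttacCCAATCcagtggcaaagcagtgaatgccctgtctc
The search covered 300 bases per promoter, 250 before and 50 after the start, on both strands, for the Y box CTGATTGG and its overlapping core GATTGG, the X box letters AGCAAC, and the X2-like letters TGACGTCA, TGACGCA and TGCGTCA, of which the last pair are reverse complements of each other. In H2-Aa, counted from the first base printed, TGACGTCA lay at bases 177 to 184 and CTGATTGG at bases 200 to 207. In H2-Eb1, AGCAAC lay at bases 159 to 164 and CTGATTGG at bases 189 to 196, and a further core was read on the opposite strand at bases 216 to 221. Of 32851 promoters in the table, 4.1% held CTGATTGG, 16.1% its core, 14.8% AGCAAC, 1.79% TGACGTCA, 2.12% TGACGCA or its reverse complement, and 0.855% held CTGATTGG together with one of the X or X2-like elements. One of the 2 H2-DMa promoters held only the core, at bases 52 to 57, and the Ctss promoter held none of the letters searched. Promoters of Cd74, H2-Ab1 and Ciita were not analysed here. A match is a description of the letters, not evidence that a factor was bound in these livers.

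The array values are log2 intensities after RMA normalisation, from 1.51 to 13.58, with array medians between 5.34 and 5.43. Of 8 hepatocyte markers measured, only Hnf4a passed the filters, and its log2 level was 11.26 to 11.65 over the pups. A pair of male arrays stood apart: Xist, the RNA of the inactive X chromosome, read 7.92 in m-WS1 and 9.3 in m-LF6, against 3.25 to 4.5 in the other males and 11.67 to 11.88 in females, and the changes of class II genes in males are therefore also given without these pups where they matter, and the counts of the lists once. The array names carry a number (39, 40 or 48 for WSD pups and 37, 49 or 50 for LFD pups) that the labels do not explain. Each number lies within 1 maternal diet, so it cannot be told apart from the diet except as a random block, and if it marks a litter the p-values below overstate the precision. A gene is said to have risen or fallen where p in limma was at most 0.01, the threshold of the study's methods. The adjusted p (Benjamini-Hochberg over 10810 genes) stands beside it, and changes are WSD minus LFD on the log2 scale with 95% intervals.

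In male pups, maternal WSD went with a higher level of the I-A beta chain, H2-Ab1, and of none of the other 6 genes at the threshold. At p 0.01, 1 of the 7 rose and none fell, where 5.62% of all genes tested were called, 3.02% as higher and 2.6% as lower, and 1 of 7 is too small a count to read against that share. At an adjusted p under 0.05 none of the 7 was called (0.731% of all genes were). In female pups none of the 7 was called in either direction, where 5.19% of all genes were at p 0.01 (3.6% higher, 1.59% lower) and 0.305% at the adjusted threshold. Before adjustment, 1 of the 7 in females, Ciita, was below 0.05 in limma, and the exact permutation test put none there. The median change of the 7 genes was 0.05 in males, with 5 of 7 positive, and -0.11 in females, with 2 of 7 positive, beside medians over all genes tested of 0.007 and 0.014. The plots of the levels per pup and of the changes with their intervals show how far the groups overlapped. They overlapped for all 7 genes in both sexes, where 1.39% of all genes in males and 0.435% in females had groups that did not.

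**Figure D1:**
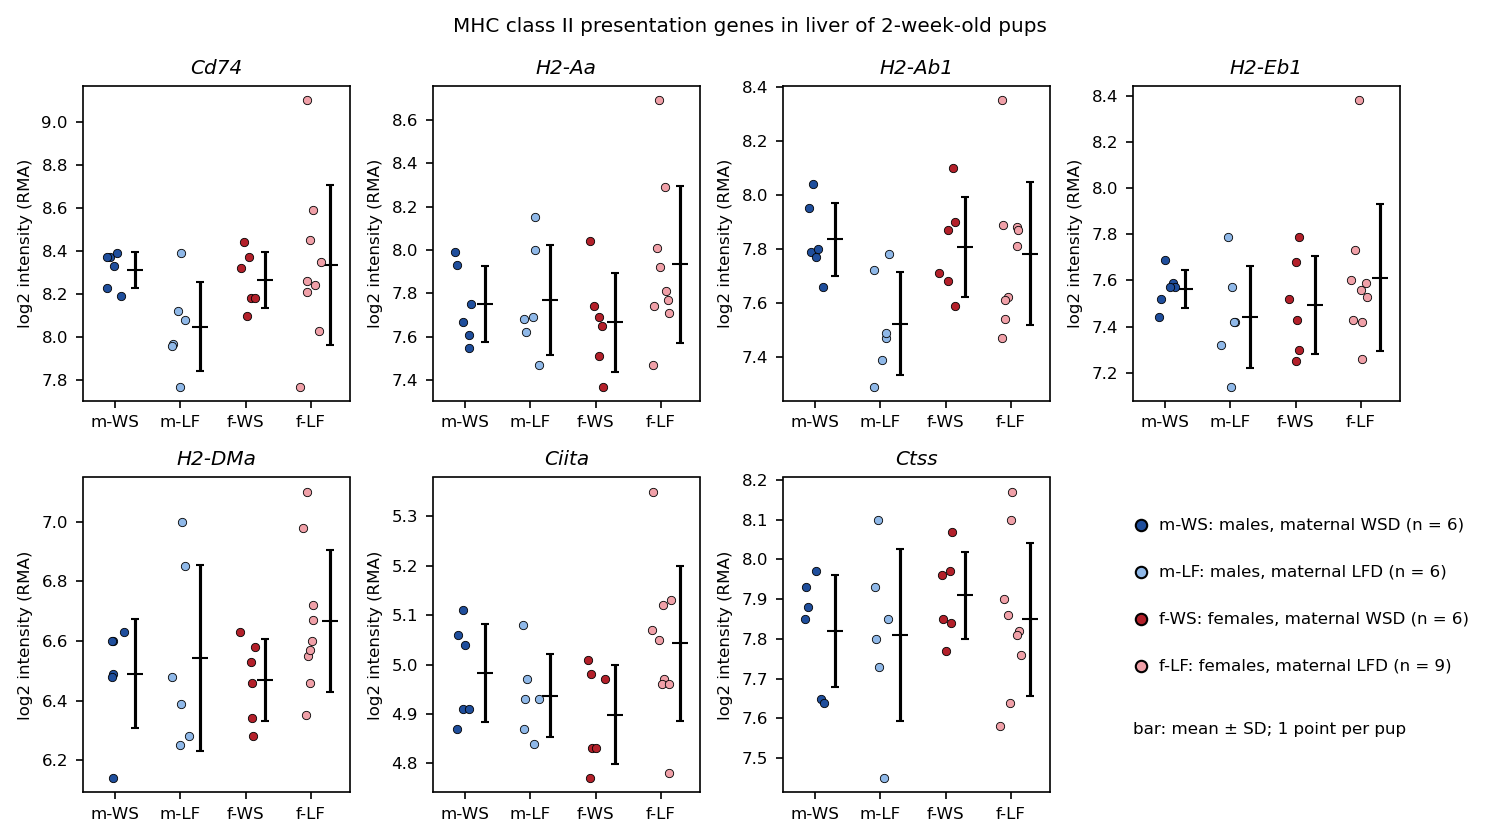
Log2 intensity (RMA) of the 7 genes in each pup (points), by sex and maternal diet, with the mean and SD of each group (bars; n = 6, 6, 6 and 9). The scale differs between panels. The groups overlap in every panel, and the highest point in f-LF is the same pup, f-LF5, for all 7 genes.

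Among the chains, H2-Ab1 read 7.66, 7.79, 7.77, 8.04, 7.80 and 7.95 in m-WS pups 1 to 6, against 7.29, 7.47, 7.49, 7.39, 7.78 and 7.72 in m-LF pups 1 to 6. The groups overlapped through m-LF5 and m-LF6, which read above the lowest WSD male, m-WS1, while 4 of the 6 LFD males lay below every WSD male. The change was 0.31 (SE 0.11, interval 0.08 to 0.54), a fold of 1.24 (1.06 to 1.45), past the threshold of p 0.01 and with adjusted p = 0.175 in limma. The exact permutation test gave p = 0.0152, 2-sided, where 0.00216 is the smallest that 924 arrangements allow. Without m-LF6 and m-WS1 the change was 0.39 and still past it (adjusted p = 0.0982), where 6.7% of all genes were called. With the array number as a random block it was 0.31 with adjusted p = 0.304, short of the threshold, and the same block lowered the share of all genes called in males to 3.9%. Leaving out single pups moved the change between 0.27 and 0.36, and the call was lost in 17 of 27 cases (m-LF1 to m-LF4, m-WS2 to m-WS6, f-LF1, f-LF2, f-LF8, f-LF9, f-WS2, f-WS4, f-WS5 and f-WS6), with adjusted p between 0.165 and 0.31.

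In female pups H2-Ab1 had a lowest, median and highest level of 7.59, 7.79 and 8.10 in f-WS, against 7.47, 7.81 and 8.35 in f-LF. The f-WS range lay wholly inside that of f-LF, and the change was 0.02 (interval -0.19 to 0.23, adjusted p = 0.952). The diet change of males minus that of females was 0.29 (interval -0.02 to 0.60, adjusted p = 0.539), so a difference between the sexes in the response of H2-Ab1 was not established, although the call was made in males alone.

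H2-Aa, the alpha chain that pairs with the H2-Ab1 product, had a lowest, median and highest level of 7.55, 7.71 and 7.99 in m-WS, against 7.47, 7.68 and 8.15 in m-LF. The ranges of the male groups nearly coincided, and the change was -0.02 (SE 0.15, interval -0.32 to 0.28, adjusted p = 0.976). Among female pups the levels were 7.37, 7.67 and 8.04 in f-WS, against 7.47, 7.81 and 8.69 in f-LF. The change in females was -0.27 (SE 0.13, interval -0.54 to 0.01, adjusted p = 0.358). Pup f-LF5 supplied the highest female value, and without it the change was -0.17 (adjusted p = 0.543).

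H2-Eb1 had a lowest, median and highest level of 7.44, 7.57 and 7.69 in m-WS, against 7.14, 7.42 and 7.79 in m-LF. All WSD males lay inside the LFD range, with a change of 0.12 (interval -0.14 to 0.38, adjusted p = 0.746). In females the levels were 7.25, 7.48 and 7.79 in f-WS, against 7.26, 7.56 and 8.38 in f-LF. The change in females was -0.11 (interval -0.35 to 0.12, adjusted p = 0.715), and it was -0.02 without f-LF5, whose value of 8.38 stood well above the 7.73 of the next pup of its group.

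Cd74, the invariant chain, read 8.23, 8.37, 8.19, 8.39, 8.37 and 8.33 in m-WS pups 1 to 6, against 7.77, 7.97, 8.08, 7.96, 8.12 and 8.39 in m-LF pups 1 to 6. In 5 of 6 LFD males the level was below that of every WSD male, and the exception was m-LF6, the LFD male with Xist signal, which reached 8.39. The change was 0.27 (SE 0.13, interval -0.01 to 0.54, adjusted p = 0.364), and it did not reach the threshold. Without m-LF6 and m-WS1 it was 0.35 (adjusted p = 0.214), and with each sex fitted alone, where the wide spread of f-LF does not enter the error, it was 0.27 with adjusted p = 0.136 and passed the threshold. The exact permutation test gave p = 0.0195 (2-sided). Among female pups the lowest, median and highest levels were 8.10, 8.25 and 8.44 in f-WS, against 7.77, 8.26 and 9.10 in f-LF, and the change was -0.07 (interval -0.32 to 0.18, adjusted p = 0.855). The change of males minus that of females was 0.33 (interval -0.04 to 0.70, adjusted p = 0.555).

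**Figure D2:**
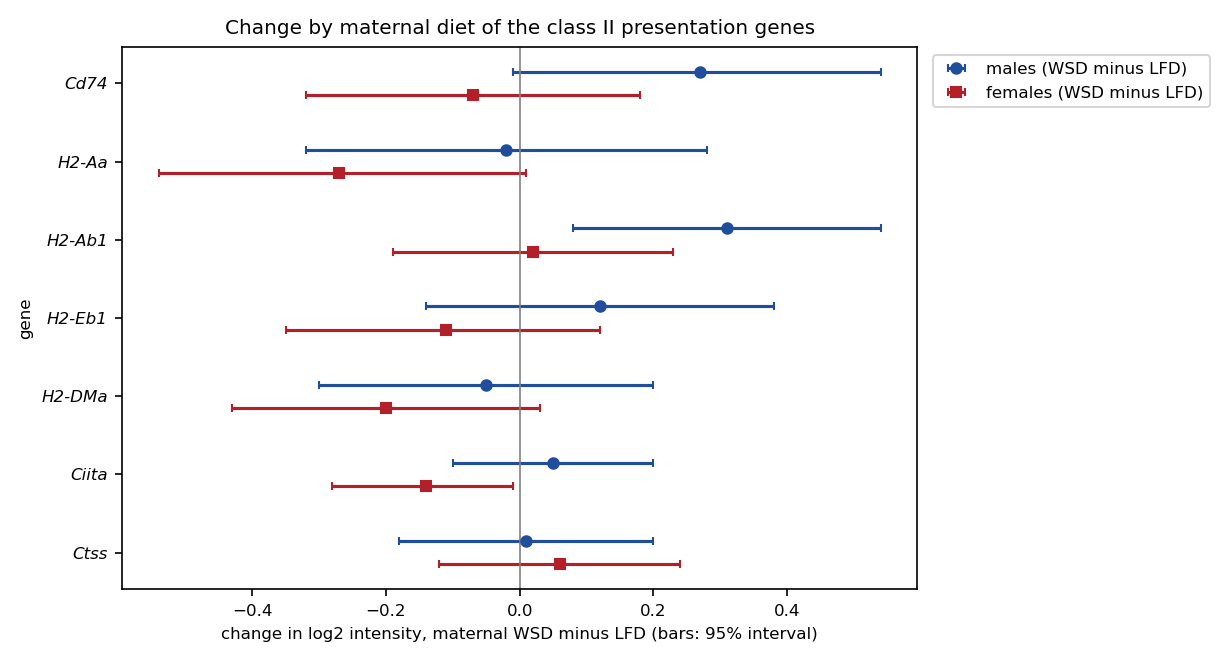
Change by maternal diet (WSD minus LFD, log2 intensity) of each gene in males (circles) and in females (squares), with 95% intervals from limma. The intervals of H2-Ab1 in males (0.08 to 0.54) and of Ciita in females (-0.28 to -0.01) leave out 0, and only the first passed p 0.01.

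Of the loading and processing genes, H2-DMa had a lowest, median and highest level of 6.14, 6.54 and 6.63 in m-WS, against 6.25, 6.43 and 7.00 in m-LF, and the change in males was -0.05 (interval -0.30 to 0.20, adjusted p = 0.911). In females it had 6.28, 6.50 and 6.63 in f-WS, against 6.35, 6.60 and 7.10 in f-LF, with a change of -0.20 (interval -0.43 to 0.03, adjusted p = 0.434). In both sexes the LFD pups reached further up than the WSD pups, and the ranges overlapped. Ctss, the protease that trims the invariant chain, had 7.64, 7.86 and 7.97 in m-WS, against 7.45, 7.82 and 8.10 in m-LF, and 7.77, 7.90 and 8.07 in f-WS, against 7.58, 7.82 and 8.17 in f-LF. The WSD range lay inside the LFD range in each sex, and the changes were 0.01 in males (interval -0.18 to 0.20, adjusted p = 0.979) and 0.06 in females (interval -0.12 to 0.24, adjusted p = 0.81).

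Ciita, the transactivator, had a lowest, median and highest level of 4.87, 4.97 and 5.11 in m-WS, against 4.84, 4.93 and 5.08 in m-LF, with a change of 0.05 in males (interval -0.10 to 0.20, adjusted p = 0.838). In females it had 4.77, 4.90 and 5.01 in f-WS, against 4.78, 5.05 and 5.35 in f-LF. No pup of either sex read above the range of the array medians (5.34 to 5.43), so the changes of Ciita rest on a weak signal. The change in females was -0.14 (interval -0.28 to -0.01), a fold of 0.905, with adjusted p = 0.312, and the exact permutation test gave p = 0.0673 (2-sided). It did not reach the threshold in the full set, but did without f-LF3, the lowest LFD female, where it was -0.18 (adjusted p = 0.173). Without f-LF5, the highest LFD female, it was -0.11 (adjusted p = 0.469) and short of the threshold. The change of males minus that of females was 0.19 for Ciita (interval -0.01 to 0.39, adjusted p = 0.538). For the diet change of males minus that of females, 0 of the 7 genes passed p 0.01, where 2.5% of all genes did, and none of the 7 was below 0.05 before adjustment either.

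The sexes were also compared on each maternal diet. On LFD, Cd74 averaged 8.05 ± 0.21 in males and 8.33 ± 0.37 in females (SD, n = 6 and 9), a difference of -0.29 (adjusted p = 0.74). H2-Ab1 averaged 7.52 ± 0.19 in males and 7.78 ± 0.26 in females on LFD, a difference of -0.26 (adjusted p = 0.73). Neither reached p 0.01, although both were below 0.05 before adjustment in limma, and 1.37% of all genes reached it, while all 7 differences on LFD were negative. On WSD, Cd74 averaged 8.31 ± 0.08 in males and 8.27 ± 0.13 in females, and H2-Ab1 7.83 ± 0.14 in males and 7.81 ± 0.18 in females (SD, n = 6 each), with none of the 7 genes past p 0.01, which 3.35% of all genes passed. These LFD pups are the same that enter the diet comparisons, so the sex and diet values are not independent of each other.

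The genes varied together from pup to pup. After the mean of each group was taken away, the deviations of Cd74, H2-Aa, H2-Ab1 and H2-Eb1 correlated over the 27 arrays with Pearson's r of 0.76 to 0.92 in their 6 pairs, the closest being H2-Aa with H2-Eb1. Without f-LF5 these correlations were 0.64 to 0.88. Ciita followed Cd74 (r = 0.87, or 0.80 without f-LF5) and H2-Ab1 (0.80, or 0.71) more closely than H2-DMa (0.43, or 0.28), and H2-DMa followed H2-Aa (0.81, or 0.77). Ctss stood furthest from the rest, with r of 0.36 to 0.66 over its 6 pairs. These values are descriptions over arrays that were normalised together and that may hold littermates.

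**Figure D3:**
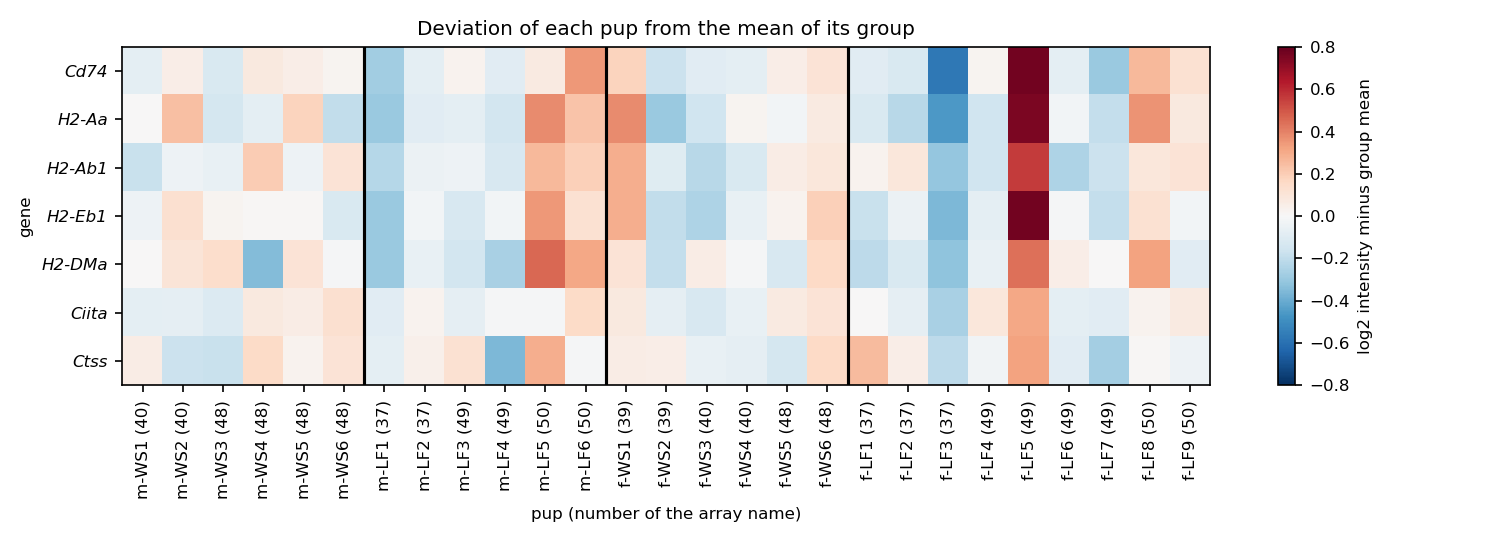
Deviation of each gene (rows) in each pup (columns, with the number of the array name in brackets) from the mean of its group, in log2 intensity, red above and blue below the mean. Whole columns tend to share a colour, with f-LF5 above its group in all 7 genes and f-LF3 below its group in all 7.

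Single pups showed the shared movement. The mean deviation of Cd74, H2-Aa, H2-Ab1 and H2-Eb1 was highest in f-LF5, at 0.71, and lowest in f-LF3, at -0.42. The array numbers showed it too: in LFD males, pups of number 50 averaged 8.25 for Cd74, 8.07 for H2-Aa, 7.75 for H2-Ab1 and 6.92 for H2-DMa, whereas those of number 37 averaged 7.87, 7.58, 7.38 and 6.36 and those of number 49 averaged 8.02, 7.65, 7.44 and 6.33 (n = 2 each). LFD males of number 50 were thus close to WSD males for H2-Ab1, where WSD males of number 40 averaged 7.72 (n = 2) and those of number 48 averaged 7.89 (n = 4). Without number 50 the change of H2-Ab1 in males was 0.42 (adjusted p = 0.045), and without number 48 it was 0.20 (adjusted p = 0.728). The fit without number 48 kept only the WSD males of number 40, m-WS1 and m-WS2 (n = 2). The share of all genes called in either fit is not given here, so neither adjusted p can be read as particular to H2-Ab1. In LFD females numbers 37 and 49 overlapped for Cd74: number 37 read 8.24, 8.21 and 7.77, number 49 read 8.35, 9.10, 8.26 and 8.03, and number 50 read 8.59 and 8.45. Whether the number stands for a litter, and its part in the result, was not tested. The array names also carry a prefix that crosses the diets, and the change of H2-Ab1 in males was 0.33 with the prefix as a block (past the threshold), 0.34 within prefix G073 and 0.24 within prefix G074 (neither past it).

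The alpha and beta chain of I-A were also compared within each pup. The difference H2-Aa minus H2-Ab1, chosen after its values were seen and given without a test, was 0.09, 0.20, -0.16, -0.37, 0.14 and -0.40 in m-WS pups 1 to 6, against 0.18 to 0.37 in m-LF. Its mean was -0.08 ± 0.26 in m-WS and 0.25 ± 0.07 in m-LF (SD, n = 6 each), a shift of -0.33. In females it was -0.14 ± 0.13 in f-WS and 0.15 ± 0.20 in f-LF (SD, n = 6 and 9), a shift of -0.29. The shift had the same direction in both sexes, and the ranges overlapped in both. It ran with the array number too: LFD females of number 37 read 0, -0.16 and 0, within the f-WS range, and WSD males of number 40 read 0.09 and 0.20, near or inside the m-LF range. Other pairs of the 7 genes shifted as far, such as H2-Ab1 minus H2-DMa in males, by 0.36. Of the 21 pairs, only that one, in males, had diet groups that did not overlap, and it too was not tested. The difference of a pair of probe sets has no meaningful zero, so only the shift between groups can be read, and whether the chains changed unequally by diet was not tested.

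**Figure D4:**
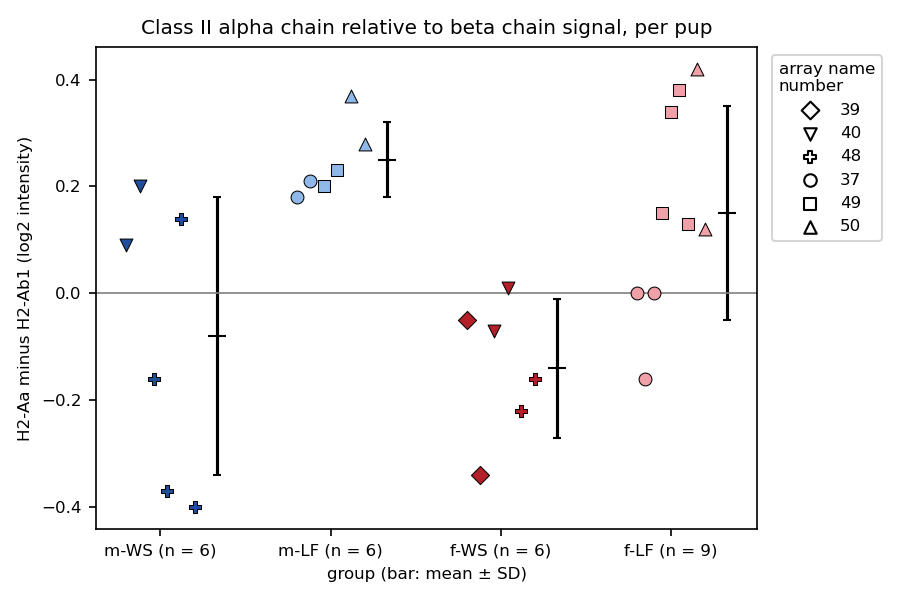
H2-Aa minus H2-Ab1 (log2 intensity) in each pup, by group, with the mean and SD as bars and the symbol giving the number of the array name. The zero line is for orientation only. The WSD groups lie lower than the LFD group of their sex on average (-0.08 against 0.25 in males, -0.14 against 0.15 in females), with m-WS spread more widely than m-LF.

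Further genes of the class II pathway, listed by role, were measured beside the 7. Of 22 listed, 18 had a probe set of their own and 11 passed the filters, among which none rose and none fell in either sex (before adjustment, 2 in males, Rfx5 and H2-Ob, and none in females were below 0.05 in limma), and the median change was 0.02 in males and -0.01 in females. The smallest p in males were those of Rfx5, a subunit of the RFX complex that binds the X box, with a change of 0.20 (interval 0.04 to 0.35, adjusted p = 0.198), and of H2-Ob, a chain of the H2-DM inhibitor H2-O made chiefly by B cells, with 0.32 (interval 0.06 to 0.59, adjusted p = 0.22). Marchf1, a ubiquitin ligase that removes class II from the surface, had -0.16 (adjusted p = 0.442), and Cd83, which opposes it, 0.17 (interval -0.05 to 0.39). In females the smallest p were those of Ifi30, the endosomal thiol reductase, with a change of -0.18 (adjusted p = 0.413), Rfx5 with 0.12 (adjusted p = 0.42), Marchf1 with -0.12 (adjusted p = 0.534) and the protease Ctsd with 0.06 (adjusted p = 0.63). H2-DMb1, H2-DMb2, Ctsb and Rfxank were not analysed here for want of a probe set with a single gene, so the beta partner of H2-DMa has no value.

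Class I presentation and the interferon gamma response, which is known to induce Ciita, were set beside them. Of 7 class I genes tested, Psmb10, an immunoproteasome subunit, rose in both sexes, by 0.20 in males (adjusted p = 0.0947) and 0.21 in females (adjusted p = 0.0852), and the list medians were 0.03 and 0.05. Of 13 interferon gamma genes tested, none was called in males, and in females Irf8, a transcription factor of macrophages, dendritic cells and B cells, rose by 0.24 (adjusted p = 0.0957), with list medians of 0.03 in males and 0.07 in females.

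The markers of cells that carry class II moved unevenly. Of 13 B cell and B precursor markers tested, 6 rose in males and none in females, led in males by Igll1, part of the surrogate light chain of pre-B cells, with a change of 1.14 (adjusted p = 0.0332), and Ebf1, a B lineage transcription factor, with 0.89 (adjusted p = 0.0856). All 13 had positive changes in both sexes, with a median of 0.64 in males and 0.23 in females. Their mean log2 level ranged from 6.22 to 6.77 in m-WS, against 5.35 to 6.69 in m-LF, and from 6.05 to 6.98 in f-WS, against 5.72 to 7.13 in f-LF. In LFD males the B cell level ran with class II in some pups and not in others. Pup m-LF5 had the lowest B cell level of all pups, 5.35, with an H2-Ab1 of 7.78. Its H2-Aa and H2-DMa were the highest among males, 8.15 and 7.00. In m-LF6 the B cell level was 6.69, with 8.00 for H2-Aa and 7.72 for H2-Ab1. Pups m-LF1 to m-LF4 had B cell levels of 5.70 to 5.93 and H2-Ab1 levels of 7.29 to 7.49. The markers' part in the change of H2-Ab1 was not tested beyond these values.

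None of the 12 dendritic cell markers tested was called in either sex in limma (before adjustment, 1 in males, Ccr7, and none in females was below 0.05), with medians of 0.05 in males and -0.04 in females and mean levels of 5.98 to 6.07 in m-WS, against 5.84 to 6.13 in m-LF, and of 5.97 to 6.14 in f-WS, against 5.87 to 6.23 in f-LF. Of 16 Kupffer cell and macrophage markers, Cd163, a haemoglobin scavenger receptor, fell by 0.59 in males (adjusted p = 0.0437) and none was called in females, with medians of -0.08 and 0.03. Their mean level ranged from 8.36 to 8.68 in m-WS, against 8.36 to 9.18 in m-LF, and from 8.67 to 8.83 in f-WS, against 8.50 to 9.07 in f-LF, and the top values were those of m-LF5 and f-LF5. Of 12 monocyte and neutrophil markers, Cxcr2, S100a9 and Ltf rose in males by 0.39, 0.82 and 0.73 (adjusted p = 0.0797 for Cxcr2, the smallest of these), with a median of 0.50 in males and 0.21 in females, where none was called. Of 8 T and NK cell markers Nkg7 fell in males by 0.29 (adjusted p = 0.176), and of 10 endothelial markers Clec4g fell in males by 0.38 (adjusted p = 0.0728), with list medians in males of -0.15 for the T and NK cell markers and 0.01 for the endothelial markers, of which 6 were positive. Without m-LF6 and m-WS1, a setting added after these counts were seen, 9 of 13 B cell markers rose in males, Cd163, Clec4g, Cxcr2, S100a9 and Psmb10 kept their calls, Ltf and Nkg7 lost theirs, and Rfx5 and the dendritic cell marker Ccr7 passed the threshold as higher.

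**Figure D5:**
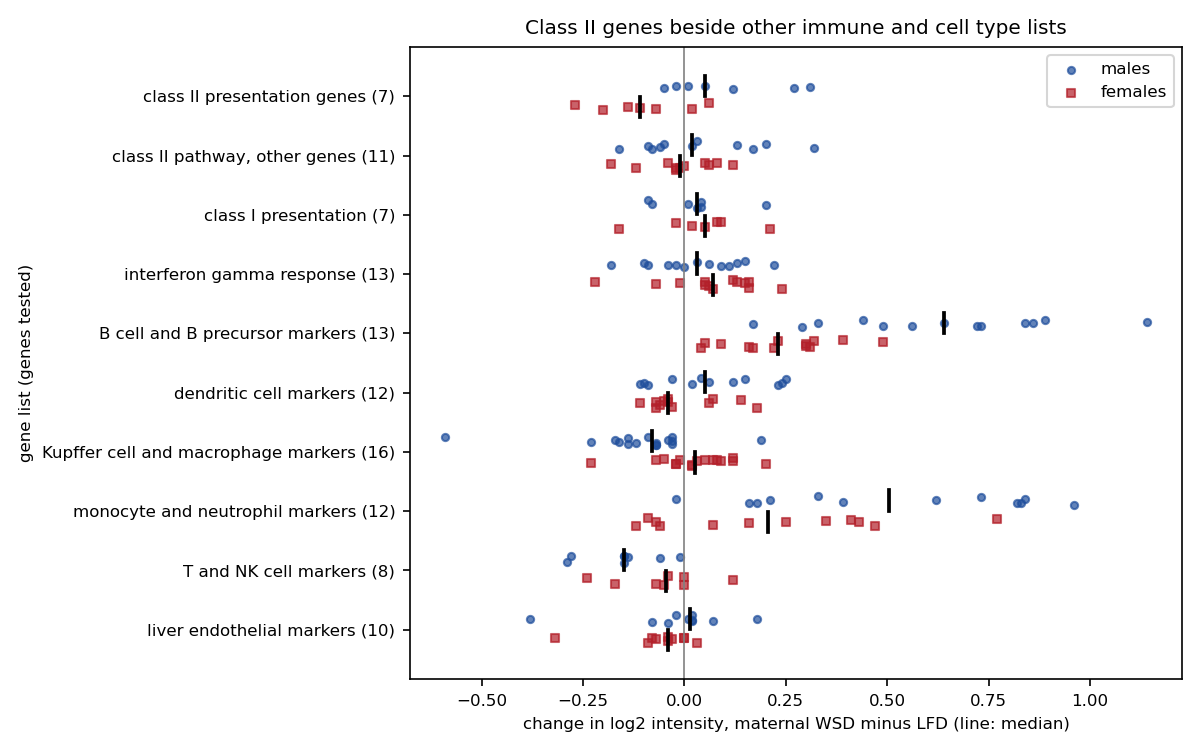
Change by maternal diet (WSD minus LFD, log2 intensity) of each gene tested, by list, in males (circles) and in females (squares), with the median of each list as a line. The medians of the 7 class II genes (0.05 and -0.11) lie near 0 with single genes on both sides, from -0.05 to 0.31 in males and from -0.27 to 0.06 in females, while all 13 B cell markers lie above 0 in both sexes. Of 16 Kupffer cell and macrophage markers, 1 lies above 0 in males and 10 in females. Of 8 T and NK cell markers it is 0 and 2, and of 12 monocyte and neutrophil markers 11 and 8.

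Across the pups, the genes whose deviations were most like the mean deviation of Cd74, H2-Aa, H2-Ab1 and H2-Eb1, among 10803 genes outside the 7 (median r of 0), were Marco, a scavenger receptor of macrophages, with r = 0.83, Cd52, a leukocyte surface protein, with 0.80, Prkcd and an immunoglobulin kappa variable segment with 0.79 each, Tmsb4x, Pik3cg, Ckap4, Plekho1 and Pik3cd with 0.78 each, and Rac2, a GTPase of blood cells, with 0.77. Without f-LF5 the values ran from 0.58 for the immunoglobulin segment to 0.84 for Plekho1. None of these 10 genes was called by diet in either sex. For comparison, markers of the B lineage gave 0.42 for Cd79a, 0.44 for Igll1, 0.35 for Ebf1 and 0.35 for Ms4a1 (0.42, 0.57, 0.47 and 0.29 without f-LF5). Flt3 and Itgax, markers of dendritic cells among others, gave 0.57 and 0.42 (0.71 and 0.42 without f-LF5). Of the Kupffer cell and macrophage markers, Marco, the closest gene above, gave 0.83 (0.73 without f-LF5). From the same list, Cd5l gave 0.65, Csf1r 0.55, Vsig4 0.54 and Clec4f 0.49 (0.44, 0.53, 0.51 and 0.18 without f-LF5). The correlations of the other markers on these lists are not given here. All of these are correlations over the same 27 arrays, given as descriptions.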

How the data were processed

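The deposited values are log2 intensities, which the authors obtained with RMA on the 27 arrays together (version not given in the sources used here). The 35556 probe sets are those of the manufacturer, not the Entrez redefinition that the methods describe. Of these, 21218 are listed with a single gene, 1881 with several and 12457 with none. Symbols were updated by Entrez ID for 21185, and the probe set with the highest mean stood for a gene. The study's filters (intensity from 20 upwards in 4 or more arrays, IQR from 0.1 upwards) left 10810 genes, fitted with limma 3.58.1 under R 4.3.3 as 4 group means with a trended eBayes and Benjamini-Hochberg adjustment, after the same code was tested on simulated data. Single genes were also compared by exact permutation tests. Depth has no counterpart on arrays, and the number of arrays limits the precision. The p-values measure the spread between pups and take them as independent. The members and lists were chosen with earlier results of these data known. Named genes were all 7 members, the 4 of smallest p per sex among other class II genes, up to 2 per further list, and the 10 most alike genes by correlation. Ltf, Ccr7 and the single markers whose correlations are given were named outside this rule, after their values were seen. Alternatives were other filters, the mean over probe sets, other normalisations, array weights, each sex alone, the prefix, number and replicate number of the arrays as blocks or subsets, averaging by number, and leaving out pups or numbers. Figures used matplotlib 3.10.9 in Python 3.11.15.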

Additional observations from a re-analysis of the deposited data

Results flagged for a closer look

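Of 28 combinations of gene and group, 3 held a pup far from the others of its group by Dixon's test, which chance gives in about 1 of 20 groups. In f-LF, pup f-LF5 read 8.35 for H2-Ab1, where the next pup read 7.89, and 8.38 for H2-Eb1, where the next read 7.73. In m-WS, pup m-WS4 read 6.14 for H2-DMa, below the next pup at 6.48, although the same pup had the highest H2-Ab1 of its group. Of the 7 differences between the sexes in the change by diet, none passed the threshold.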

How the results depend on the processing

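Up to 49 alternatives were run per value. At p 0.01, 1 member was called in males. The count was 0 with eBayes without intensity trend, with each array centred on its median, with the quantile normalisation repeated, within either prefix, with the number as a random block, after averaging the arrays that share sex and number, without number 37, 48 or 49, and in the exact permutation test. It was 2, H2-Ab1 and Cd74, with each sex fitted alone, and 0 to 1 over the pups left out in turn. At an adjusted p under 0.05 it was 1 without number 50, and 0 over all pups left out. In females the count of 0 became 2 (H2-Aa and Ciita) without number 37 and was 0 to 1 over the pups left out. Among the alternatives, the share of all genes called is given only in males, for the number as a random block and without m-LF6 and m-WS1. The other changes in these counts can therefore not be set against all genes. H2-Ab1 in males kept its sign throughout, at 0.20 to 0.42, and fell short of p 0.01 in 28 of 49 alternatives. The cause was not tested.

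The sign changed for these values, none of which was called in the reported fit. H2-Aa in males was 0.03 with array weights, 0 with the prefix as a block, 0.05 within prefix G073, 0.01 with arrays averaged, 0.10 without number 48, 0.13 without number 50, 0.03 without m-LF6 and m-WS1, and -0.08 to 0.06 over the pups left out. H2-DMa in males was 0.02 with array weights, 0 without number 48, 0.14 without number 50, 0.01 without m-LF6 and m-WS1, and -0.11 to 0.04 over the pups left out. Ciita in males was -0.06 within prefix G074 and -0.03 without number 48. Ctss in males was -0.01 with median centring, -0.08 within prefix G074, 0 with arrays averaged, 0 without number 37, -0.04 without number 48, -0.05 without number 49, 0 without m-LF6 and m-WS1, and -0.06 to 0.07 over the pups left out. In females Cd74 was 0.01 without number 49 and -0.14 to 0.03 over the pups left out, H2-Ab1 was -0.01 within prefix G073, -0.01 without number 37, -0.03 without number 39, -0.01 without number 48 and -0.03 to 0.09 over the pups left out, and Ctss was -0.04 within prefix G073. For the difference between the sexes, H2-DMa was -0.04 without number 49, and Ctss was 0.13 within prefix G073, 0.03 without number 50 and -0.12 to 0.01 over the pups left out.

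Pups that share a replicate number across diets did not deviate together (correlations of -0.26 to 0.11 in males and -0.22 to 0.26 in females). No sign of pairing by this number was thus seen within a sex, and pairs across the sexes were not examined. With the replicate number as a block, H2-Ab1 in males was 0.31 (limma, adjusted p = 0.157, past p 0.01), Ctss in the difference between the sexes was 0, and no count of called members changed.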
